A study of Mus musculus with 6 samples.

Results

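The probes of the mouse keratin gene clusters were examined on a methylation tiling array. They are the non-control probes that start within either of 2 intervals of build mm9. One runs for 1070 kb from position 99100000 of chromosome 11 to 100170000 and covers the type I keratin and keratin-associated genes. The other covers the type II keratin genes and runs for 710 kb from position 101160000 of chromosome 15. This rule uses position alone and no measured value. It gave 463 probes on chromosome 11 and 264 on chromosome 15, together 727 of the 174638 non-control probes of the array, or 0.416%. Krt8 and Krt18 lie near the distal end of the chromosome 15 interval, and the last 50 kb of it held 16 of the 264 probes.

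The study profiled pancreatic tissue of mouse offspring aged 12 weeks by methylated DNA immunoprecipitation on arrays (MeDIP-chip), with 3 samples whose dams were glucose intolerant and 3 whose dams had normal glucose tolerance, the control group. An antibody enriches methylated fragments, which were labelled with Cy5 and hybridised with Cy3-labelled input DNA of the same group, in the same dye orientation on all 6 arrays. No strain, sex or diet is given in the sources used here. Whether the samples within a group are different animals or litters is not stated, so each p-value reflects only the variation among these samples, some of which may be technical.

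Keratins are the intermediate filament proteins of epithelial cells, and each filament is built from pairs of an acidic type I and a basic type II keratin. Simple epithelia, among them the ducts and acini of the pancreas, use chiefly Krt8 and Krt18, with Krt7 and Krt19 in ducts. Most other genes of the clusters serve the epidermis, other stratified epithelia or the hair follicle, and the keratin-associated proteins (Krtap genes) form the matrix of the hair shaft. DNA methylation in mammals lies mainly on CpG dinucleotides, and a pull-down of methylated DNA depends on how many CpGs a fragment holds as well as on how many of them are methylated.

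The sequences at the gene starts show how unequal that CpG content is. In the RefSeq table of build GRCm38.p6, the order of genes on chromosome 11 held 27 Krt genes with 23 Krtap genes between them, at positions 13 to 35 of the 50. Chromosome 15 held 27 Krt genes, with Krt8 and Krt18 as the last ones. CpGs were counted as the letters CG, which read the same on both strands, in windows of 300 bases from 250 before to 50 after the annotated start. Over all 27025 genes with a window the median was 7 CpGs, 94.2% of windows held at least 1 and 43.9% held at least 10. The simple epithelial keratins with a window, 4 of 5 listed, had a median of 11.5 CpGs, with 6 to 21. The epidermal and other soft epithelial keratins, 13 of 22 with a window, had a median of 4, with 2 to 8. Hair and inner root sheath keratins, 17 of 24, had a median of 5, with 2 to 11. The 21 Krtap windows had a median of 2, with 0 to 8, and 61.9% of them held at least 1 CpG. Krt19 has no window in the promoter table.

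The following 4 windows, with 0 to 17 CpGs, are shown because they differ in what a methylation pull-down can read. They are those of Krt8 and Krt18, the pair of the pancreatic epithelium, of Krt31, a type I hair keratin, and of Krtap3-2, a hair matrix gene. The last was chosen after its count was seen, as the first Krtap gene in gene order with no CpG. Each reads 5′ to 3′ on the strand of its gene, in lower case with CpGs in capitals.
Krt8: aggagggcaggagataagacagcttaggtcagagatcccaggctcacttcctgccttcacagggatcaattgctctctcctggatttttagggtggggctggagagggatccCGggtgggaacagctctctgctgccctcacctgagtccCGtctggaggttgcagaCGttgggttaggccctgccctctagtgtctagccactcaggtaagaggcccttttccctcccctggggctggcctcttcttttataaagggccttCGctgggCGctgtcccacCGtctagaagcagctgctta
Krt18: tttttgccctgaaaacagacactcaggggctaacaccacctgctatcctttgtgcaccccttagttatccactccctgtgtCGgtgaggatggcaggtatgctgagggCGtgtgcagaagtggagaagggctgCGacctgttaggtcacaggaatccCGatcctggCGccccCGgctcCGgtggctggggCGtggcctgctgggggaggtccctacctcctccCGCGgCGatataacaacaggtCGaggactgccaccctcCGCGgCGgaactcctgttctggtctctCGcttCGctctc
Krt31: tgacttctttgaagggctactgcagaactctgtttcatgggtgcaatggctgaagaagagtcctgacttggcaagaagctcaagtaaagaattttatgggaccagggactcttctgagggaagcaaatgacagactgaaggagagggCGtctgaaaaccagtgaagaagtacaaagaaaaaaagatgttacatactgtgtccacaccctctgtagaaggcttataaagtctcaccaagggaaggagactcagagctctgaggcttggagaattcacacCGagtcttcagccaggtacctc
Krtap3-2: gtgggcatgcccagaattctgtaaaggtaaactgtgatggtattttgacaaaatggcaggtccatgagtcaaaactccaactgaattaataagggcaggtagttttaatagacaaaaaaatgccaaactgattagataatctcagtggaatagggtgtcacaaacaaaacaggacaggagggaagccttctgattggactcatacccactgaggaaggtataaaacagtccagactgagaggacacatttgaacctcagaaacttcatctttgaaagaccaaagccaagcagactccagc

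Krt18 held 17 CpGs in this window and Krt8 held 6, against 2 for Krt31 and 0 for Krtap3-2. These windows are on another build than the probes, so no window was placed on a probe and no gene is named for any probe or region here. The files name no gene, so the tissue label could not be set against marker genes.

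The value throughout is the log2 ratio of MeDIP signal to input signal, centred on each array's median, so that 0 is the middle of that array. A probe was tested where its input signal was well above background on all 6 arrays. This left 305 of 463 probes on chromosome 11 (65.9%), 208 of 264 on chromosome 15 (78.8%) and 110702 of 166390 other autosomal probes (66.5%). The probes were grouped along the genome: chromosome 11 held 64 groups and chromosome 15 held 33, each with a median of 8 probes, spanning a median of 1616 and 1645 bp.

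The arrays of the groups also differed technically. Input was well above background for 71.0% to 78.7% of probes on the 3 arrays of the glucose intolerance group and for 85.5% to 92.4% on the 3 of the normal tolerance group, while the MeDIP channel ranged from 75.9% to 83.2% over all 6. The file headers place the 3 glucose intolerance arrays in scan 1, the first normal tolerance array in scan 2 and the other two in scan 3, with a red detector voltage of 359, 394 and 421 V and a green one of 356 V on all. Each scan holds 1 group, so no comparison within a scan exists, and scan entered the probe and region tests as a random block among the alternatives. In tissue, a change in the share of a cell type and a change in methylation within cells cannot be told apart either.

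By the mean over tested probes, the type I interval read lower than the other autosomal probes on every array, and the type II interval read close to them. The mean ratio over the 305 tested chromosome 11 probes was -0.41, -0.23 and -0.36 in the 3 samples of the glucose intolerance group and -0.62, -0.33 and -0.41 in those of the normal tolerance group. Set against the mean of the other autosomal probes on the same array, chromosome 11 stood at -0.27, -0.16 and -0.20 and at -0.33, -0.14 and -0.14, below on 6 of 6 arrays. The 208 tested chromosome 15 probes had means of -0.13, -0.05 and -0.15 in the glucose intolerance group and -0.26, -0.14 and -0.23 in the normal tolerance group. Their distance from the other autosomal probes was between 0.01 and 0.06 on the 6 arrays. These levels are a description, since different probes read the same methylation differently.

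**Figure D1:**
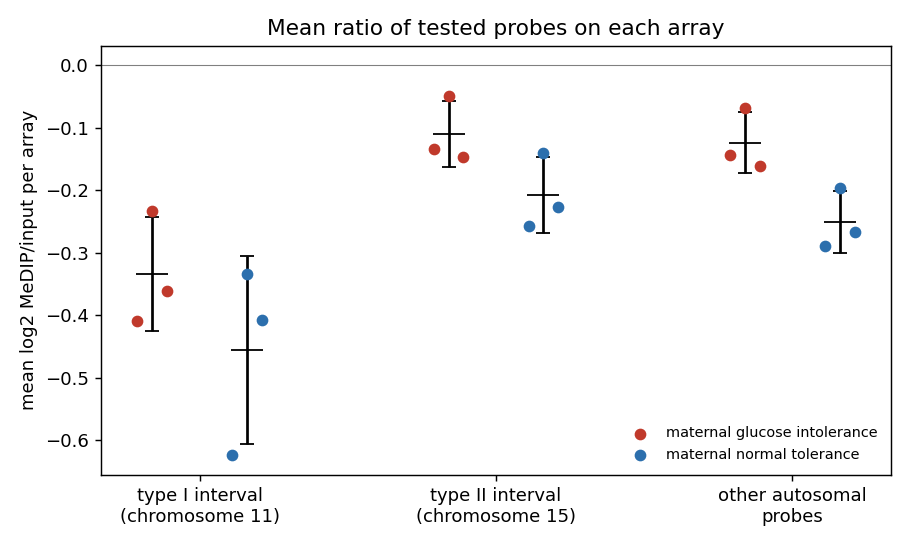
Mean log2 ratio of MeDIP over input (vertical axis) on each of the 6 arrays for tested probes of the type I interval, the type II interval and the other autosomes. The type I means lie below the other autosomal means on every array, and the type II means lie within 0.06 of them.

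Probe length moves with these levels. The 45-nt probes made up 40.0% of the type I interval, 61.0% of the type II interval and 50.4% of the other autosomal probes. Mean ratios were highest at 45 nt and lowest at 56 to 60 nt in each set. On chromosome 11 the mean was 0.15 for 45 nt, -0.70 for 46 to 50 nt, -0.68 for 51 to 55 nt and -1.83 for 56 to 60 nt. On chromosome 15 it was 0.11, -0.20, -0.91 and -2.14 over the same classes. The other autosomal probes had 0.24, -0.43, -0.96 and -1.68. Among 45-nt probes both intervals read below the others on 6 of 6 arrays, by a mean of -0.09 on chromosome 11 and -0.13 on chromosome 15. Chromosome 11 also read below on 6 of 6 arrays at 46 to 50 nt (-0.27) and at 56 to 60 nt (-0.15). Chromosome 15 did so at 56 to 60 nt (-0.46). Above the others on 6 of 6 arrays were chromosome 11 at 51 to 55 nt (0.27) and chromosome 15 at 46 to 50 nt (0.23). Chromosome 15 at 51 to 55 nt was mixed, below on 2 of 6 arrays with a mean distance of 0.04. With the other probes weighted to the same lengths, an alternative chosen after seeing the data, the distance of chromosome 11 shrank from -0.21 to -0.08 and that of chromosome 15 went from 0.03 to -0.08. Each was then below 0 on 6 of 6 arrays, from -0.16 to -0.03 on chromosome 11 and from -0.11 to -0.03 on chromosome 15. The type II interval therefore reads above or below the other autosomes depending on whether length is matched.

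**Figure D2:**
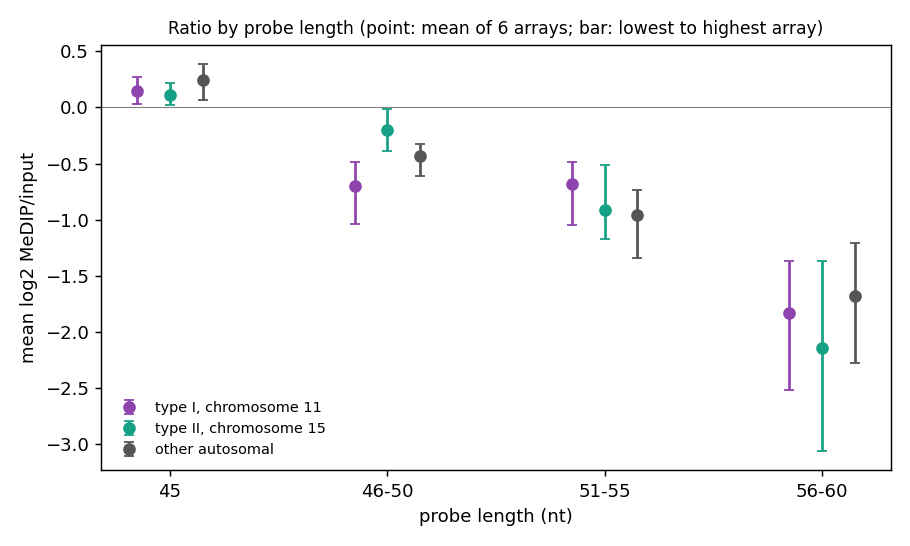
Mean log2 ratio (vertical axis) by probe length class (horizontal axis) for the type I interval, the type II interval and the other autosomal probes. Each set is highest in the 45-nt class and lowest in the class of 56 to 60 nt, where the means are -1.83, -2.14 and -1.68.

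Along the intervals, low values were unevenly spread. Tested probes closer than 500 bp were joined into regions of at least 3 probes, which gave 52 regions on chromosome 11 and 31 on chromosome 15. The median region level was -0.21 on chromosome 11 and -0.28 on chromosome 15, against -0.04 over the other autosomal regions. By this median both intervals were below the other autosomal regions and chromosome 15 was the lower one, unlike by the mean over probes. On chromosome 11, 25 of 52 regions were below 0 on every array and 6 were above 0 on every array. On chromosome 15 these counts were 13 and 6 of 31. Among the other autosomal regions they were 6379 and 5185 of 17751. Regions below -1 made up 8 of 52 on chromosome 11 (15.4%) and 2 of 31 on chromosome 15 (6.45%), against 10.02% of the other autosomal regions. The SD between regions was 0.62 and 0.44, while the median SD between arrays of a group was 0.12 to 0.20, so positions differed far more than samples did. Between arrays, the 83 region levels correlated at r = 0.80 to 0.92, a description only, since all arrays carry the same probes.

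In 50 kb steps from each interval's start, the lowest mean on chromosome 11 was -1.08 at chr11:99150000-99199999, over only 8 tested probes. The highest, 0.27, was reached at chr11:99300000-99349999 with 2 tested probes and at chr11:99800000-99849999 with 5, so it rests on very few probes. Low values with more probes behind them lay from 300 to 400 kb into the interval, a segment singled out after its values were seen. Its 72 tested probes had means of -0.75, -0.50 and -0.78 in the glucose intolerance group and -1.07, -0.74 and -0.67 in the normal tolerance group. The other 233 tested probes of the interval had means from -0.48 to -0.15. The segment held 4 of the 8 chromosome 11 regions below -1. Its probes were longer, with a mean of 52.3 nt against 49.8 nt, and 81.0% of its MeDIP spots were well above background against 93.6%. Against other autosomal probes of the same lengths its distance was -0.19 rather than -0.56, and -0.04 for the rest of the interval.

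On chromosome 15 the steps ran from 0.51 at chr15:101160000-101209999, over 8 tested probes, to -0.74 at chr15:101660000-101709999, over 13. Both are thinly filled.

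**Figure D3:**
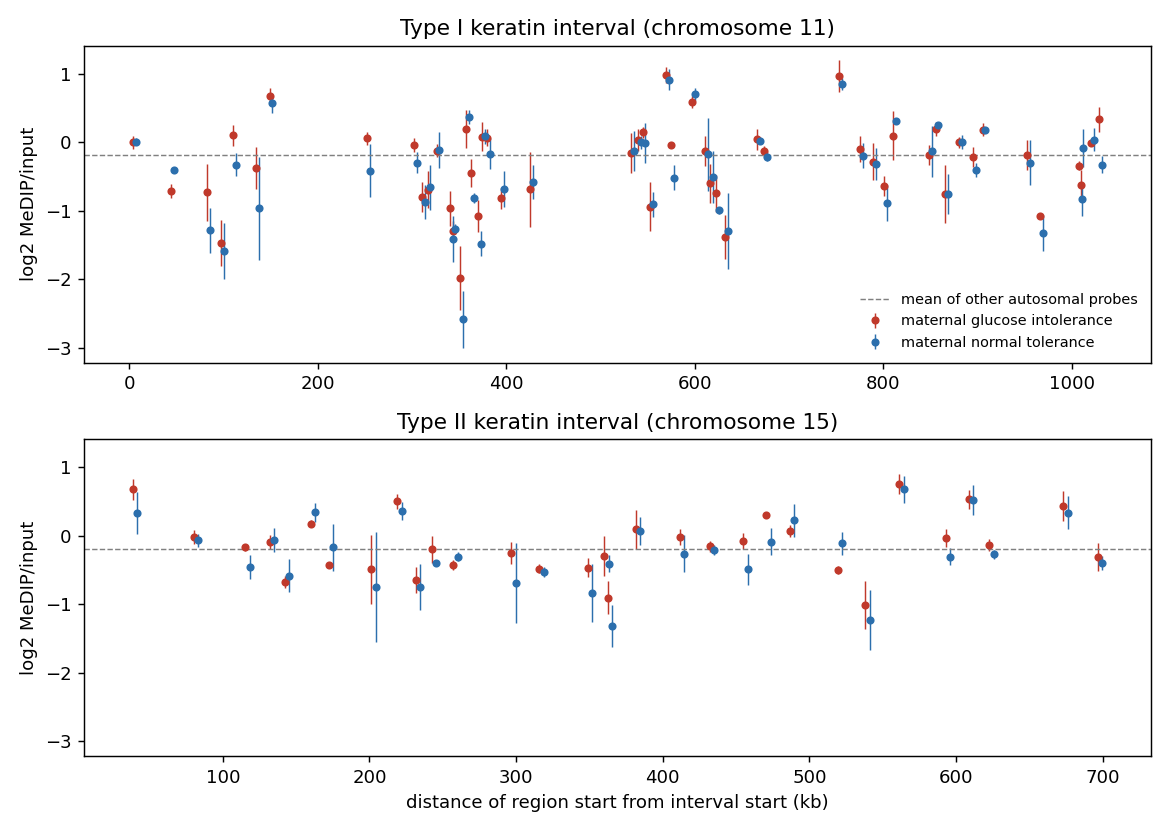
Level of each region (vertical axis, log2 ratio) by its distance from the start of the interval (horizontal axis, kb) for the type I and type II intervals, by group. The lowest region, at -2.28, lies 353 kb into the type I interval, and 4 of the 8 type I regions below -1 lie from 300 to 400 kb.

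The lowest region of all, chr11:99452786-99453904 with 5 probes, read -2.45, -1.51 and -1.98 in the glucose intolerance group and -3.07, -2.32 and -2.36 in the normal tolerance group. Of the other autosomal regions, 1.49% were lower still. Its probes were long, with a mean of 54.8 nt, and only 16 of its 30 MeDIP spots were well above background, so its depth below 0 is poorly measured. The next lowest were chr11:99198988-99199500 at -1.53 and chr11:99733490-99734682 at -1.34. Neither came above -0.97 on any array. With normexp background correction these 3 levels were -0.88, -0.93 and -0.56, so how far below 0 they lie depends on the background treatment. On chromosome 15 the lowest were chr15:101699552-101701324 at -1.12, chr15:101524252-101525442 at -1.11 and chr15:101392944-101394499 at -0.70, which became -0.39, -0.38 and -0.046 with normexp.

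The highest regions were less extreme. On chromosome 11, chr11:99670712-99671176 read 1.1, 0.88 and 0.95 in the glucose intolerance group and 0.76, 1.07 and 0.91 in the normal tolerance group. The groups overlapped, and with no filter on dim probes the 7 probes there averaged -0.26, so this high level holds for its 3 tested probes only. The others were chr11:99855079-99855732 at 0.91 and chr11:99698884-99700227 at 0.65. On chromosome 15 the highest were chr15:101722857-101723321 at 0.72, chr15:101770259-101771811 at 0.53 and chr15:101200057-101201756 at 0.51.

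Within the probe groups, values depended on position as well. On chromosome 11 the mean at 500 bp before the centre of a group was 0.20 in the glucose intolerance group and 0.01 in the normal tolerance group, over 53 probes, and at 250 bp before the centre it was -0.67 and -0.79, over 51 probes. The mean probe length was 45.96 nt at the first of these positions and 49.0 nt at the second. Chromosome 15 went from 0.24 and 0.17 at 500 bp before the centre to -0.32 and -0.49 at the centre. The part of probe length in these profiles was not tested.

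**Figure D4:**
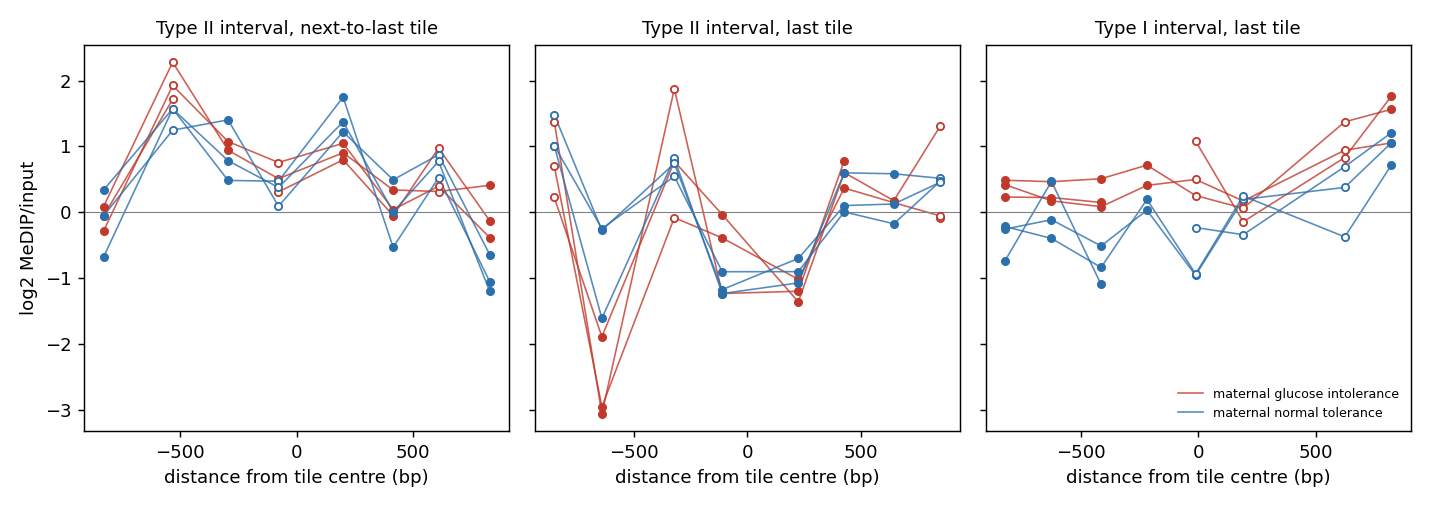
Log2 ratio (vertical axis) of each probe on each array by its distance from the centre of its probe group (horizontal axis), by maternal glucose tolerance. Shown are the next-to-last and last groups of the type II interval and the last group of the type I interval. Open points are probes that were not tested.

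The comparison by maternal glucose tolerance asked whether these intervals differed between the groups, and no test of the intervals passed its threshold. Chromosome 11 averaged -0.33 ± 0.09 (SD, n = 3) in the glucose intolerance group and -0.46 ± 0.15 (SD, n = 3) in the control group, a difference of 0.12 (two-sided exact permutation test, p = 0.5, adjusted p = 0.625 over 10 comparisons). Chromosome 15 averaged -0.11 ± 0.05 and -0.21 ± 0.06 (SD, n = 3 each), a difference of 0.10 (exact permutation p = 0.2, adjusted p = 0.5). With each region weighted equally, chromosome 15 stood at -0.14 ± 0.05 and -0.25 ± 0.07 (SD, n = 3 each). All 3 samples of the glucose intolerance group were then above all 3 of the normal tolerance group, at an exact permutation p of 0.1, which is the smallest that 3 against 3 can give, and an adjusted p of 0.5.

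The other autosomal probes moved the same way. They averaged -0.12 ± 0.05 and -0.25 ± 0.05 (SD, n = 3 each), a difference of 0.13. Relative to them, chromosome 11 differed between the groups by -0.0057 (exact permutation p = 1.0), and the sign turned without glucose intolerance replicate 1 (0.022) and without normal tolerance replicate 2 (0.028) or 3 (0.027). Chromosome 15 stood at 0.015 ± 0.0051 in the glucose intolerance group against 0.043 ± 0.012 (SD, n = 3 each), which is a difference of -0.028. All 3 samples of the glucose intolerance group were below the others, at the smallest possible exact permutation p of 0.1 and an adjusted p of 0.5. So the raw and the relative differences of chromosome 15 had opposite signs, and both were of the size of the array-wide shift or smaller.

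Single probes gave no call. With limma and Benjamini-Hochberg adjustment over the array, 0 of 513 member probes passed 0.05, against 0.000865% of all 115581 tested probes, and the lowest adjusted p was 0.104. At an unadjusted limma p under 0.05 there were 72 of 513 member probes (14.0%), 50 higher and 22 lower with maternal glucose intolerance, against 15.8% of all tested probes, 10.3% higher and 5.53% lower. The share among the keratin probes was thus near that of the array. The count of 72 became 21 with scan as a random block. It was 117 without normal tolerance replicate 1, 35 without normal tolerance replicate 3, 45 without glucose intolerance replicate 2 and 47 without glucose intolerance replicate 3, and 12 probes passed the adjusted threshold without normal tolerance replicate 1. The share over all probes was not computed under these settings, so these counts cannot be set against the array. The probe with the lowest p started at chr11:99796511 and was 49 nt long. It read -1.61, -1.52 and -1.51 in the glucose intolerance group and 0.01, -0.36 and -0.05 in the normal tolerance group.

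Regions gave the same picture. By limma, 0 of 83 member regions passed an adjusted p of 0.05, against 0% of all 18518 regions, and 13 of 83 (15.7%) had an unadjusted p under 0.05, against 15.8%. Of these 13, 10 were higher with maternal glucose intolerance and 3 lower, and over all regions the shares were 13.3% and 2.51%. The groups did not overlap in 13 of 83 regions (15.7%), 10 higher and 3 lower, against 22.1% of all regions, 17.5% higher and 4.54% lower. The count of 13 with an unadjusted p under 0.05 became 2 with scan as a random block, 5 without glucose intolerance replicate 2, 6 without glucose intolerance replicate 3 and 7 without normal tolerance replicate 3. The share over all regions fell as well, from 15.8% to 5.17%, 9.01%, 10.2% and 8.14% in the same order. Centring each array on the other autosomal probes gave 5 higher and 3 lower, and loess normalization gave 3 and 4, so the excess of higher regions moved with the scaling. The median difference was 0.06 on chromosome 11 and 0.10 on chromosome 15, against 0.12 over all regions.

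The largest region difference was at chr11:100130700-100131348, with 4 probes. It read 0.54, 0.20 and 0.27 in the glucose intolerance group and -0.46, -0.21 and -0.31 in the normal tolerance group, so the groups did not overlap. The means were 0.34 ± 0.18 and -0.33 ± 0.12 (SD, n = 3 each), and the difference of 0.67 had a standard error of 0.14 and a limma adjusted p of 0.218. In its channels, each centred on its own median on every array, the MeDIP signal differed by 0.65 and the input signal by 0.11. Because the centring is separate, the MeDIP difference minus the input difference does not equal the ratio difference, here and in the regions below. This region passed the threshold under some alternative settings, with a limma adjusted p of 0.031 after normexp background correction and 0.0215 on the authors' deposited table. Under those settings 8.73% and 8.17% of all regions passed as well, against 0% in the main fit. Over the alternatives the adjusted p ran up to 0.849, with scan as a random block.

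The other regions with the lowest p did not pass either, though all 3 that were higher did so under some alternative. Those alternatives were normexp and the authors' deposited table, where 8.73% and 8.17% of all regions passed, against 0% in the main fit. At chr11:99676492-99677691, with 6 probes, the glucose intolerance group read -0.06, -0.02 and -0.03 and the normal tolerance group -0.71, -0.36 and -0.48, a difference of 0.48 at a limma adjusted p of 0.224, or 0.045 on the authors' deposited table. There the input signal differed by -0.41 and the MeDIP signal by -0.053. At chr15:101632270-101633334 the difference was 0.38, with a limma adjusted p of 0.266, or 0.049 with normexp, and a value of 0.14 with no filter. At chr15:101616405-101617765 it was 0.41, with a limma adjusted p of 0.273, or 0.044 with normexp and 0.038 on the authors' deposited table. The last difference became 0.24 when each dim MeDIP spot was set to the lowest value counted as well above background. At chr15:101632270-101633334 the input signal differed by -0.080 and the MeDIP signal by 0.18. At chr15:101616405-101617765 the input signal differed by -0.26 and the MeDIP signal by 0.028.

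In the other direction, chr11:100110905-100111357 differed by -0.54 and chr15:101680921-101682432 by -0.39. In both, the input signal was higher with maternal glucose intolerance, by 0.62 and 0.48, so the denominator moved with the difference. With normexp they shrank to -0.17 and -0.067, and the first was -0.066 when probes up to 1000 bp apart were joined. At chr11:99146054-99146531 the difference was -0.30, and at chr15:101333667-101334320 it was -0.26. These became -0.036 and -0.038 with normexp, and the second was 0.042 on the authors' deposited table. In these regions too the input signal was higher with maternal glucose intolerance, by 0.31 and 0.58. Their MeDIP signal differed by -0.12 and 0.19. The part of the input signal in these region differences was not tested.

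The last 50 kb of the chromosome 15 interval, the end toward which Krt8 and Krt18 lie, held 10 tested probes. Their mean was -0.23, -0.10 and -0.37 in the glucose intolerance group and -0.03, -0.12 and -0.16 in the normal tolerance group, a difference of -0.12 (exact permutation p = 0.3, adjusted p = 0.5). The probe starting at chr15:101857552, 56 nt long and chosen after its values were seen, sets this direction. It read -3.06, -1.89 and -2.96 in the glucose intolerance group and -1.61, -0.25 and -0.27 in the normal tolerance group, a difference of -1.92 (limma adjusted p = 0.145). Its MeDIP signal was well above background on 0 arrays of the first group and 2 of the second, so its ratios with maternal glucose intolerance have only a bound. Without it the other 9 probes differed by 0.10 (exact permutation p = 0.4), and the median difference of the 10 probes was 0.082. The sign also turned with normexp background correction (0.090), on the authors' deposited table (0.022) and with both channels above background (0.058).

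Relative to the other autosomal probes, the 10 tested probes stood at -0.083, -0.033 and -0.21 in the glucose intolerance group and at 0.26, 0.072 and 0.10 in the normal tolerance group, so the groups did not overlap. Without the probe named above, the remaining 9 stood between 0.085 and 0.43 on the 6 arrays and the groups overlapped, with a difference of -0.026. Over all 16 probes, dim ones included, the stretch stood above the other autosomal probes on 6 of 6 arrays, by 0.18 to 0.61. The mean distance was 0.41 over all 16 probes, against 0.018 over the 10 tested ones. Of these 16 probes 81.25% were 45 nt long, against 50.4% of the other autosomal probes. This stretch was not matched for probe length, and the part of length or of dim input in its level was not tested.

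Both regions of that stretch had group means 0.09 apart. The region chr15:101834810-101835978, with 4 probes, read 0.65, 0.44 and 0.21 with maternal glucose intolerance and 0.62, 0.16 and 0.24 with normal tolerance, a difference of 0.09 (limma adjusted p = 0.805). The region chr15:101858089-101858891, with 4 probes, read -0.55, -0.15 and -0.22 and -0.28, -0.49 and -0.41, a difference of 0.09 (limma adjusted p = 0.782). They thus lay on opposite sides of 0 in each sample and overlapped between groups.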

How the data were processed

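Per the file headers, the authors used Agilent Feature Extraction 11.0.1.1 on a design of build mm9. The processed intensity values deposited for each dye were background-subtracted and linearly dye-normalized by that software, per the file headers. A log10 ratio was deposited too and served as a check. The authors also deposited a table on a log2 scale, whose normalization and any smoothing are not given in the sources used here. In that table the medians per array were 0.027 to 0.038, it correlated with the raw Cy5 over Cy3 ratio at r = 0.925 to 0.936 across probes, and it served as an alternative.

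The log2 ratio of Cy5 (MeDIP) over Cy3 (input) processed intensity was computed, spots flagged as outliers were left out (1.77% of values), and each array was centred on its median, with no loess. A probe needed input well above background on 6 arrays and values on at least 3, with at least 1 per group. Tests used limma 3.58.1 in R 4.3.3 over all tested probes or regions, with Benjamini-Hochberg adjustment, and exact permutation over the 6 arrays for means. The limma fit was run on simulated data with independent noise of the same SD for every probe and no array-wide shift or scan effect. That run checked the code only and cannot show how the fit behaves on these arrays. The number of arrays limits the precision. Normexp (offset 50) ran on median spot signals, the raw signals these files hold.

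Named were, per interval, the 3 highest and 3 lowest regions, the 2 lowest p-values in each direction, both regions of the last 50 kb, and the extreme 50 kb steps. The members and lists were chosen with earlier results of these data known. RefSeq promoter windows are on GRCm38.p6 and no coordinate was converted.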

Additional observations from a re-analysis of the deposited data

How the results depend on the processing

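The group differences of the intervals were small and not called, and their sign depended on the scaling. With loess they became -0.021 over both intervals, -0.0099 on chromosome 11 and -0.038 on chromosome 15 by probes, and -0.020, -0.017 and -0.025 by regions. Loess removes the array-wide shift: the median difference of all regions was 0.12 as reported, 0.17 with normexp, 0.035 with quantile normalization, 0.097 in the authors' deposited table, 0.040 centred on the other autosomal probes and -0.0030 with loess. Relative to the other autosomal probes, the deposited table gave 0.0123 over both intervals, 0.0125 on chromosome 11 and 0.0119 on chromosome 15, and no filter gave 0.0090 on chromosome 11. Leaving out 1 replicate gave -0.0551 to 0.0084 over both intervals, -0.0666 to 0.0281 on chromosome 11 and -0.039 to -0.020 on chromosome 15, and by probes without that subtraction 0.051 to 0.16, 0.040 to 0.18 and 0.067 to 0.13. The last 50 kb went from -0.12 to 0.090 with normexp, 0.022 in the deposited table and 0.058 with both channels above background and 0.10 with its probe of largest difference left out, a setting chosen after seeing the data, and ranged from -0.19 to -0.057 without 1 replicate.

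The level of chromosome 11 against the other autosomal probes moved from -0.21 to -0.084 with normexp, -0.12 in the deposited table, -0.10 with both channels above background and -0.076 with matched lengths. That of chromosome 15 moved from 0.03 to 0.074 in the deposited table, 0.10 with no filter, -0.042 with both channels above background and -0.077 with matched lengths.

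Member probes past the adjusted limma threshold, 0 as reported, numbered 28 with normexp, 7 with quantile normalization, 27 in the deposited table, 2 with both channels above background, 14 with the replicate block and 0 to 12 without 1 replicate. At an unadjusted p under 0.05 the 72 became 131 with normexp, 143 in the deposited table, 113 with no filter, 21 with scan as a random block (correlation within scans 0.367) and 35 to 117 without 1 replicate. Shares over all probes were not computed under these settings, so the probe counts cannot be set against the array. Member regions past the adjusted threshold, 0 as reported, numbered 11 with normexp, 10 in the deposited table and 2 with the replicate block. Over all regions of the array, 8.73%, 8.17% and 4.07% passed it under these settings. At an unadjusted p under 0.05 the 13 became 26 with normexp, 7 with loess, 29 in the deposited table, 8 centred on the other autosomal probes, 2 with scan as a random block, 22 with the replicate block and 5 to 16 without 1 replicate. Over all regions the shares were 34.1%, 13.3%, 30.7%, 12.0%, 5.17% and 25.9% in the same order, against 15.8% as reported. Without 1 replicate they ran from 8.14% to 27.7%. The split into higher and lower, 10 and 3 as reported, was 26 and 0 with normexp, 3 and 4 with loess, 6 and 4 with quantile normalization, 24 and 5 in the deposited table and 5 and 3 with the other centring. The cause of these changes was not tested.

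Same-numbered arrays of the groups had deviations from their group means that correlated at 0.566, 0.536 and 0.0401. Between differently numbered arrays the correlations ran from -0.579 to 0.172. Deviations within a group are tied to each other, so these values cannot decide whether the numbers are pairs. The labels do not say so, and the main tests did not take the numbers as pairs. With the replicate block, chr11:100130700-100131348 had an adjusted limma p of 0.039, a setting under which 4.07% of all regions passed.

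Of the named regions, chr15:101333667-101334320 became 0.042 in the deposited table, chr15:101834810-101835978 became -0.0097 with loess and ranged from -0.015 to 0.23 without 1 replicate, and chr15:101858089-101858891 became -0.19 with loess, -0.20 with no filter, -0.030 with both channels above background and -0.36 with a gap of at most 1000 bp.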
